A study of Homo sapiens with 8 samples.

Results

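The genes described here are 10 members of the S100 family of calcium-binding proteins, S100A2, S100A4, S100A6, S100A8, S100A9, S100A10, S100A11, S100A14, S100A16 and S100P. They were listed by symbol, with earlier results of these data known, and were taken from every probe set of the array that is annotated to one of these symbols alone. This gave 13 of the 54613 probe sets tested, for 10 of the 19775 genes with a name. Each gene is represented by its probe set with the highest mean over all arrays, and the 3 remaining probe sets, of S100A6, S100A8 and S100A10, are given beside it.

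RNA was measured in A549 cells, an established line of human lung adenocarcinoma cells, on 8 Affymetrix U133 Plus 2.0 arrays. Cells were cultured either as flat monolayers (2D) or as spheroids formed in hanging droplets (3D), and each culture was left as a control or received 10 ng/ml tumor necrosis factor (TNF) and 2 ng/ml transforming growth factor beta (TGFβ), given in 2 rounds of 48 hours. The 4 groups, 2D control, 2D treated, 3D control and 3D treated, therefore all came from the same unmodified line and held 2 arrays each. The 2 arrays of a group are called technical duplicates by the study's methods and biological replicates by the deposited design text, so every p-value measures only the spread between these arrays, and their small number limits the precision.

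S100 proteins are small proteins with paired EF-hand loops, the helix-loop-helix motif that binds calcium, and most work as dimers. Binding of calcium exposes a surface that grips other proteins, such as annexins, cytoskeletal proteins and p53, and some members are also released from cells and act on receptors such as RAGE and TLR4. Several of them are widely studied in epithelial tumors and in inflamed epithelia, because their levels change with differentiation, migration and cytokine exposure.

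Expression values were GCRMA values on the log2 scale, in which the lowest value of the table was 2.23 and the array medians lay between 2.43 and 2.50. A gene below the array median on both arrays of a group is called near background. A gene is called where its adjusted p from limma, by Benjamini-Hochberg over all probe sets tested, is under 0.05. The cytokine response of the cultures was checked with TNFAIP3, SMAD7, SKIL and NFKBIA, of which 4 of 4 were called higher in treated than in control 3D cultures and 0 of 4 in 2D cultures. In 2D the treated arrays were nevertheless higher for TNFAIP3 (3.26-fold, adjusted p = 0.0685), SMAD7 (1.75-fold, 0.355) and NFKBIA (1.73-fold, 0.198), so the lack of calls there does not show a lack of response. Between the same 3D cultures, 4 of 6 epithelial markers were called lower, against 10.8% of all genes. These were CDH1, EPCAM, KRT8 and KRT18, while KRT7 was 0.91 higher, which did not pass (limma, adjusted p = 0.0592). Of 6 mesenchymal markers, 4 were called higher, CDH2, ZEB1, ZEB2 and SNAI2, against 5.53% of all genes. VIM and FN1 were not called. The log2 of the summed epithelial values was 15.52 to 15.61 on the 3D control arrays and 14.95 to 15.02 on the 3D treated arrays. That of the mesenchymal values was 15.55 to 15.57 and 15.81 to 15.83, and most of it came from VIM and FN1. The part of these shifts in the S100 results was not tested, and in RNA of whole cultures fewer cells of a type and less RNA per cell cannot be told apart.

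More members were called between treated spheroids and treated monolayers than in the other comparisons. S100A2, S100A6, S100A10 and S100A16 were called higher in the 3D treated than in the 2D treated cultures, by 1.48-fold to 5.13-fold, and no member was called lower. The 4 of 10 members called higher stand beside 9.06% of all genes called higher and 14.5% called lower. Brighter genes were called more often: of the 12661 genes that exceeded the array's median on 2 or more of the 8 arrays, as all 10 members did, 13.9% were called higher. Both 3D treated arrays lay above both 2D treated arrays in 7 members, and both below in 0, against 29.8% and 44.0% of those 12661 genes. In a fit of only these 4 arrays none of the 4 calls was retained (adjusted p = 0.078 for S100A10, 0.0843 for S100A16, 0.139 for S100A2 and 0.221 for S100A6).

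The cytokine response within spheroids gave 1 call. S100A16 was called higher in 3D treated than in 3D control cultures and no member was called lower, which is close to the 5.53% of all genes called higher, with 10.8% called lower, and to the 8.42% called higher among these brighter genes. The treated arrays lay above both control arrays in 7 members and below both in 1, against 24.6% and 46.6% of the 12661 genes. The median difference of the 10 members was 0.46 on the log2 scale. The median over all genes was 0, but these include genes at the floor, where differences are 0 or close to it.

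In monolayers the same treatment gave no call among the 10 members by limma, where 0.121% of all genes were called higher and 0.0759% lower. The 2D treated arrays lay above both 2D control arrays in 3 members and below both in 5, against 19.8% and 24.8% of the 12661 genes. The difference between the 3D and the 2D response was called for S100A10 alone, as a larger response in 3D, against 1.32% of all genes with a higher and 1.94% with a lower response in 3D, and 1.96% with a higher response among these brighter genes. Without cytokines, S100P alone was called higher in 3D than in 2D control cultures, against 5.77% of all genes called higher, 4.90% called lower and 8.93% called higher among these brighter genes. The 3D control arrays lay above both 2D control arrays in 7 members and below both in 2, against 33.0% and 34.9%. The comparisons share arrays and are therefore not independent of each other.

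**Figure D1:**
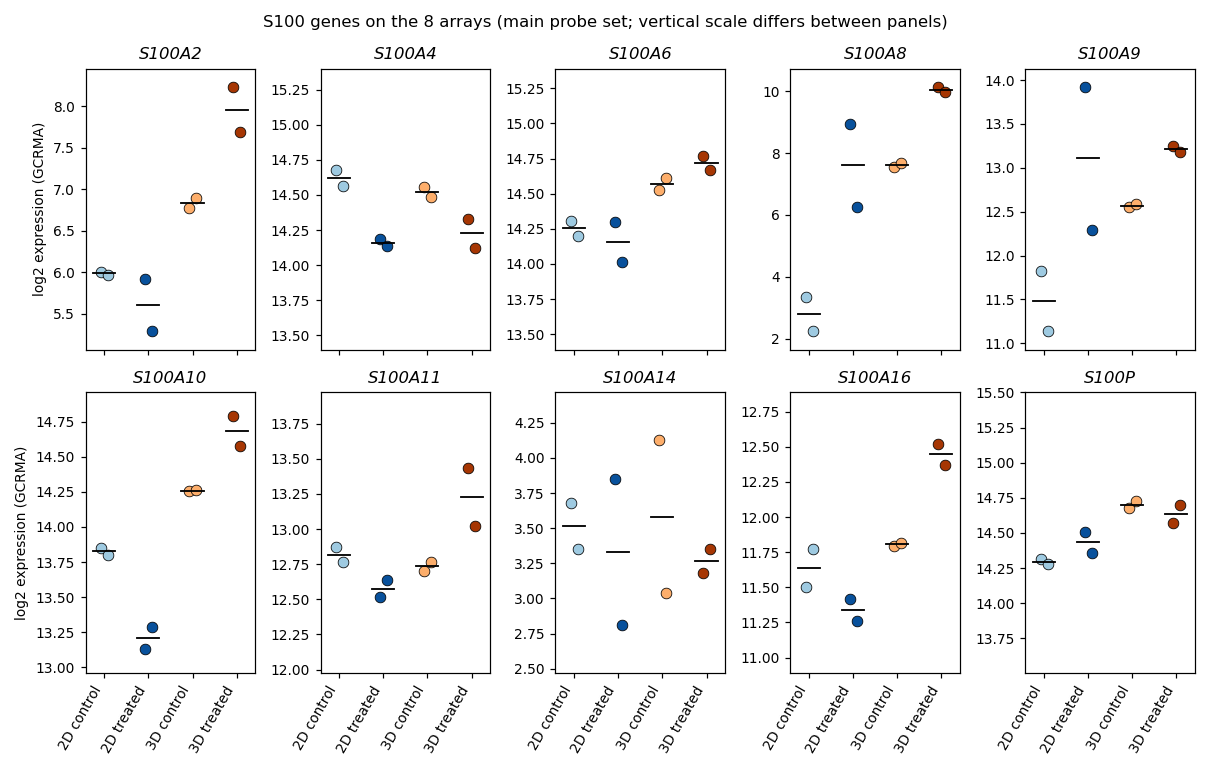
Log2 expression (GCRMA, vertical axis, a different range in each panel) of the 10 S100 genes on the 8 arrays, by group (horizontal axis). Each point is an array and each bar the mean of 2 arrays. S100A8 ran from 2.25 on a 2D control array to 10.13 on a 3D treated array. S100A2, S100A6, S100A8, S100A10, S100A11 and S100A16 were highest on both 3D treated arrays, and S100A14 had no order between groups.

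S100A8 and S100A9 encode the subunits of calprotectin, an antimicrobial and inflammatory protein that is abundant in neutrophils and is also made by stressed epithelia. Both genes were lowest in the 2D control cultures. Their RefSeq promoter windows, 250 bases before to 50 after the gene start in the direction of transcription, are shown because the pair forms 1 protein complex; the TATA box TATAAA is in capitals. Both windows are of build GRCh38.p14, S100A8 at chr1:153391024-153391323 on the minus strand, which is 1 of its 3 listed windows, and S100A9 at chr1:153357604-153357903 on the plus strand.
S100A8: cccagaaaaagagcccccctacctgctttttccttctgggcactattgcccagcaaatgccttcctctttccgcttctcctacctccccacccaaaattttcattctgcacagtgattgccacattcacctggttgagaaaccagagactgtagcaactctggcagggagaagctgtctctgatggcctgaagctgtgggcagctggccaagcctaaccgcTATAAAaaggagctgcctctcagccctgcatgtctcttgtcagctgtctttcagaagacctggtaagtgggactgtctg
S100A9: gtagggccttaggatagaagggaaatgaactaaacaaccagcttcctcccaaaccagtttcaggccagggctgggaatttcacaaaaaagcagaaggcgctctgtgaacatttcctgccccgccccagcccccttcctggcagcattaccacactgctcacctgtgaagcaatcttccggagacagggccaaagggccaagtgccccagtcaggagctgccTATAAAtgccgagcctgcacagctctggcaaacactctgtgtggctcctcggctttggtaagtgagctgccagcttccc
The TATA box began 29 bases before the gene start in both windows shown, and another S100A8 window held it 126 bases before its own start. The S100A8 windows overlap there, so this is the same site, counted once in each window. TATAAA was also found at 31 bases before the start of S100A4 and 28 before that of S100P. Of the 14 windows listed for the 10 genes, 5 held it, from 4 genes, as did 11.5% of 35116 promoter windows of the same length. A narrow form of the NF-kB motif, GGGANTTCC, searched on both strands, was in 0 of the 10 genes' windows and in 1.85% of all windows. Other forms of the motif were not searched. With a form this rare, its absence does not show that these windows lack NF-kB sites.

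S100A8 was at 3.36 and 2.25 on the 2D control arrays, the lower of which was below that array's median of 2.47. Its values were 8.92 and 6.27 on the 2D treated arrays, 7.54 and 7.68 on the 3D control arrays and 10.13 and 9.96 on the 3D treated arrays. No array of the 2D controls reached any array of the other groups, and both 3D treated arrays were above all others, while the 2D treated arrays lay on either side of the 3D controls. The differences were large and imprecise. The 2D treated cultures exceeded their controls by 4.80 ± 0.98 (log2 difference ± SE, n = 2 against 2; limma, adjusted p = 0.266), and the 3D control cultures exceeded the 2D controls by 4.81 ± 0.98 (adjusted p = 0.0689). In 3D, treated exceeded control by 2.44 ± 0.98, with a 95% interval from -0.20 to 5.07 (adjusted p = 0.271).

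The 2 arrays of the 2D treated group differed by more than 2 log2 units for S100A8, and the spread they added entered every comparison, since all groups share an estimate of it. Without 2D treated replicate 2, the treated-to-control difference in 2D was 6.12 (limma, adjusted p = 0.0405), and without replicate 1 it was 3.47 (adjusted p = 0.195). Without 2D treated replicate 1, the 3D treated cultures exceeded the remaining 2D treated array by 3.77 (adjusted p = 0.042), and without replicate 2 by 1.12 (adjusted p = 0.411), where the difference with all arrays was 2.45 (adjusted p = 0.234). With 1 or the other of these arrays left out, the difference between 3D and 2D controls had an adjusted p of 0.0369. The other probe set of S100A8 was at or next to the floor on 7 arrays and at 2.77 on 3D treated replicate 1, so that it gave no independent measurement.

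S100A9 had the same 2D treated array standing out. It was at 11.82 and 11.14 on the 2D control arrays, 13.92 and 12.29 on the 2D treated arrays, 12.55 and 12.58 on the 3D control arrays, and 13.24 and 13.18 on the 3D treated arrays. The 2D controls were again below all other arrays, and the 2D treated arrays enclosed both 3D groups. Treated exceeded control by 1.63 ± 0.60 in 2D (limma, adjusted p = 0.621; 0.81 without 2D treated replicate 1 and 2.44 without replicate 2) and by 0.64 ± 0.60 in 3D (adjusted p = 0.711). Untreated spheroids exceeded untreated monolayers by 1.09 ± 0.60 (adjusted p = 0.513). None of these passed, and the 3D treated and 2D treated means differed by 0.10, with an interval from -1.51 to 1.72; this was -0.71 without 2D treated replicate 2 and 0.92 without 2D treated replicate 1.

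Of 8 myeloid markers, 5 were near background in every group, among them PTPRC, which encodes the pan-leukocyte antigen CD45, and MPO, which encodes the neutrophil peroxidase. The remaining CD14, ITGAM and LYZ were above background. The log2 of the summed myeloid values was 8.97 to 9.92 in 2D controls, 9.53 to 10.1 in 2D treated, 9.61 to 9.73 in 3D controls and 7.61 to 7.82 in 3D treated cultures. This sum was lowest in the 3D treated cultures, but its members differed: ITGAM was 0.91 higher with treatment in 3D and 1.32 in 2D, and LYZ 3.39 higher in 3D than in 2D controls, none of which passed (limma, adjusted p = 0.2, 0.342 and 0.101). LYZ went the other way with treatment, at -2.77 in 3D and -1.77 in 2D (limma, adjusted p = 0.138 and 0.812). ITGAM differed by -1.23 between 3D and 2D controls (0.116). CD14 was lower with treatment in 3D, at -2.86 (0.0477). Between treated cultures, CD14 (-3.58, 0.0201) and ITGAM (-1.63, 0.0373) were called lower in 3D. LYZ was 2.39 higher there, which did not pass (0.162). The part of these markers in the S100A8 and S100A9 values was not tested. TLR4, a receptor of calprotectin, was near background in every group, and AGER, which encodes RAGE, was at 2.24 on 7 arrays and at 2.49 on 3D control replicate 2.

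The gene whose 4 group means were most like those of S100A8, after each gene was centred on its own mean, was another family member, S100A7 or psoriasin, with a root mean square difference of 1.03 log2 units over the 4 groups. TMEM158 (1.12) and SERPINB7 (1.14) followed. S100A7 was at 3.60 and 2.48 in 2D controls, 6.79 and 3.60 in 2D treated, 6.64 and 7.09 in 3D controls, and 7.71 and 8.49 in 3D treated cultures. As for S100A8 and S100A9, the higher 2D treated value was that of replicate 1, and no comparison of S100A7 passed (limma, adjusted p from 0.173 to 1).

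S100A10, also called p11, is the partner of annexin A2, with which it forms a tetramer that binds plasminogen and its activator at the cell surface; unlike its relatives it does not need calcium for this. S100A10 was at 13.85 and 13.80 on the 2D control arrays, 13.13 and 13.29 on the 2D treated arrays, 14.25 and 14.26 on the 3D control arrays, and 14.79 and 14.58 on the 3D treated arrays. The 4 groups did not overlap, and treated arrays were below their controls in 2D and above them in 3D. The response was 0.42 ± 0.09 in 3D (limma, adjusted p = 0.0616) and -0.61 ± 0.09 in 2D (adjusted p = 0.155), neither of which passed. Their difference of 1.04 ± 0.13 did (adjusted p = 0.0439).

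S100A10 was 2.77-fold higher in 3D treated than in 2D treated cultures, a log2 difference of 1.47 ± 0.09 (limma, adjusted p = 0.00328), and 0.43 ± 0.09 higher in 3D than in 2D controls, which did not pass (adjusted p = 0.0727). The difference between treated cultures was called with each of the 8 arrays left out (adjusted p from 0.00298 to 0.0176). The difference of responses was called without either 3D treated array (0.0237 without replicate 1, 0.0172 without replicate 2), but it was not called without 2D control replicate 1 (0.088) or 2 (0.0983), 2D treated replicate 1 (0.0886) or 2 (0.0619), or 3D control replicate 1 (0.0993) or 2 (0.102), nor with the replicate number as a block (0.107). Without 3D treated replicate 2 the response in 3D itself passed, at 0.53 (adjusted p = 0.0431). The other probe set gave 0.89 for the 3D response, -0.88 for the 2D response and 1.77 for their difference (adjusted p = 0.0962). In untreated cultures it went the other way, a 3D minus 2D difference of -0.97 (adjusted p = 0.106), so the order of the controls depends on the probe set. It also gave 0.80 between the treated cultures, which did not pass (adjusted p = 0.117).

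S100A11, or calgizzarin, binds annexin A1 and takes part in membrane repair and growth control of keratinocytes. It was at 12.87 and 12.76 in 2D controls, 12.52 and 12.64 in 2D treated, 12.70 and 12.76 in 3D controls, and 13.43 and 13.02 in 3D treated cultures. The 3D treated arrays were the highest and the 2D treated arrays the lowest, with the control arrays between them. The 3D response was 0.50 ± 0.15 (limma, adjusted p = 0.146) and the difference between treated cultures 0.65 ± 0.15 (adjusted p = 0.0584), and neither passed. Of the 2 treated 3D arrays, replicate 2 lay closer to the controls. Without it the 3D response was 0.70 (adjusted p = 0.0254), the difference of responses 0.94 (0.0307) and the difference between treated cultures 0.86 (0.0141). Without 3D treated replicate 1 the same values were 0.29 (adjusted p = 0.141), 0.53 (0.0901) and 0.45 (0.0469).

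The annexin partners of these proteins differed in direction. ANXA2, the partner of S100A10, was 0.34 ± 0.03 higher in 3D treated than in 2D treated cultures (limma, adjusted p = 0.00745) and differed by 0.15 between treated and control 3D cultures (adjusted p = 0.0727). ANXA1, the partner of S100A11, was at 13.74 and 13.82 in 3D controls and at 13.32 and 13.20 in 3D treated cultures, and fell by 0.52 (adjusted p = 0.0126). Of 11 annexins measured, 5 were called lower with treatment in 3D and 0 higher, led by ANXA13 (-2.89), ANXA4 (-1.64) and ANXA9 (-1.21). Of all genes, 10.8% were called lower and 5.53% higher there. No annexin was near background, and the share called lower among brighter genes is not given here. In 2D 0 of 11 were called by limma. Between control cultures 2 were called lower in 3D, ANXA1 and ANXA3, and between treated cultures 2 were called higher and 5 lower. Over all genes the shares were 4.90% lower between controls, and 9.06% higher and 14.5% lower between treated cultures.

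S100A2 is a nuclear and cytoplasmic member of basal epithelial cells that binds p53. Its promoter window is shown because it alone among the 10 genes held the AP-1 motif TGANTCA, which reads the same on both strands and is in capitals; 7.71% of all windows hold it. The window lies at chr1:153565795-153566094 of GRCh38.p14, on the minus strand, and is 1 of 2 listed for the gene.
S100A2: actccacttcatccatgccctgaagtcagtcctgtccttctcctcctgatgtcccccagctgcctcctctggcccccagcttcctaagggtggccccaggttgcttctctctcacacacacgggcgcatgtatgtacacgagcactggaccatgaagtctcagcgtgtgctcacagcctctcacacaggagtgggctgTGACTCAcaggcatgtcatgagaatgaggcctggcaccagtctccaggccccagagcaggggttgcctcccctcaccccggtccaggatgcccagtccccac
The match began 52 bases before the gene start. The C/EBP motif TTGCNNAA was in the window of S100A11 alone, 33 bases before the start, and in 10.5% of all windows.

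S100A2 was at 6.0 and 5.97 on the 2D control arrays and at 5.92 and 5.29 on the 2D treated arrays. In spheroids it was at 6.78 and 6.89 without and at 8.24 and 7.69 with cytokines. All 4 spheroid arrays were above all 4 monolayer arrays, and the 3D treated arrays were the highest. S100A2 was 5.13-fold higher in 3D treated than in 2D treated cultures, a log2 difference of 2.36 ± 0.29 (limma, adjusted p = 0.0117), and this was called with each of the 8 arrays left out (adjusted p from 0.0219 to 0.0419). The response in 3D was 1.13 ± 0.29 (adjusted p = 0.0948), that in 2D -0.38 ± 0.29 (0.937), and the difference between 3D and 2D controls 0.85 ± 0.29 (0.207), none of which passed.

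S100A16 is a broadly expressed member whose first EF-hand binds calcium poorly. It was at 11.50 and 11.77 in 2D controls, 11.42 and 11.26 in 2D treated, 11.79 and 11.82 in 3D controls, and 12.52 and 12.37 in 3D treated cultures. The 3D treated arrays stood above all 6 others, which lay between 11.26 and 11.82. S100A16 rose by 0.64 ± 0.12 with treatment in 3D, or 1.56-fold (limma, adjusted p = 0.0448), and was 1.11 ± 0.12 higher in 3D treated than in 2D treated cultures, or 2.15-fold (adjusted p = 0.00906). Its response in 2D was -0.30 ± 0.12 (adjusted p = 0.684), and the difference of the responses, 0.94 ± 0.17, did not pass (adjusted p = 0.085).

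The difference of S100A16 between treated cultures was called with each of the 8 arrays left out (limma, adjusted p from 0.0171 to 0.0462). The response in 3D was nearer the threshold. It was called without 2D control replicate 1 or 2 (0.0496 each) and was not called without 2D treated replicate 1 or 2 (0.0868 each), 3D control replicate 1 (0.17) or 2 (0.159), or 3D treated replicate 1 (0.13) or 2 (0.093). It was also not called after quantile normalization (0.0787), with the replicate number as a block (0.105) or in a fit of only the 4 spheroid arrays (0.103).

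S100A14, a member of epithelia whose second EF-hand is degenerate, had low values with no order between the groups. It was at 3.68 and 3.35 in 2D controls, 3.85 and 2.81 in 2D treated, 4.12 and 3.04 in 3D controls, and 3.18 and 3.35 in 3D treated cultures. The groups overlapped in each comparison. No comparison passed (limma, adjusted p = 1 in each), and the interval of the 3D response ran from -1.73 to 1.10. The genes whose group means, each centred on the gene's own mean, were nearest to those of S100A14 were CAPRIN1 (root mean square difference 0.0075 log2 units), BBS2 (0.017) and TCEANC (0.018), over differences between groups that were themselves at most 0.31 for S100A14.

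Keratinocyte markers were counted beside these genes, since several S100 proteins are abundant in skin. Of 6 measured, 4 were near background in every group, KRT1, KRT5, KRT14 and DSG3. The log2 of their summed values was 12.34 to 12.37 in 2D controls, 11.91 to 12.03 in 2D treated, 12.80 to 12.87 in 3D controls and 12.74 to 13.02 in 3D treated cultures. Almost all of it came from KRT10, which was called higher in 3D treated than in 2D treated cultures, by 0.92 (limma, adjusted p = 0.0106). The part of this shift in the S100 results was not tested. Of 7 fibroblast markers, each by its probe set with the highest mean, 3 were near background in every group and 0 were called in any comparison. Other probe sets can differ. COL1A1 differed by 0.31 between treated and control 3D cultures here. The study, which took the probe set with the largest change, reported a strong rise of COL1A1.

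**Figure D2:**
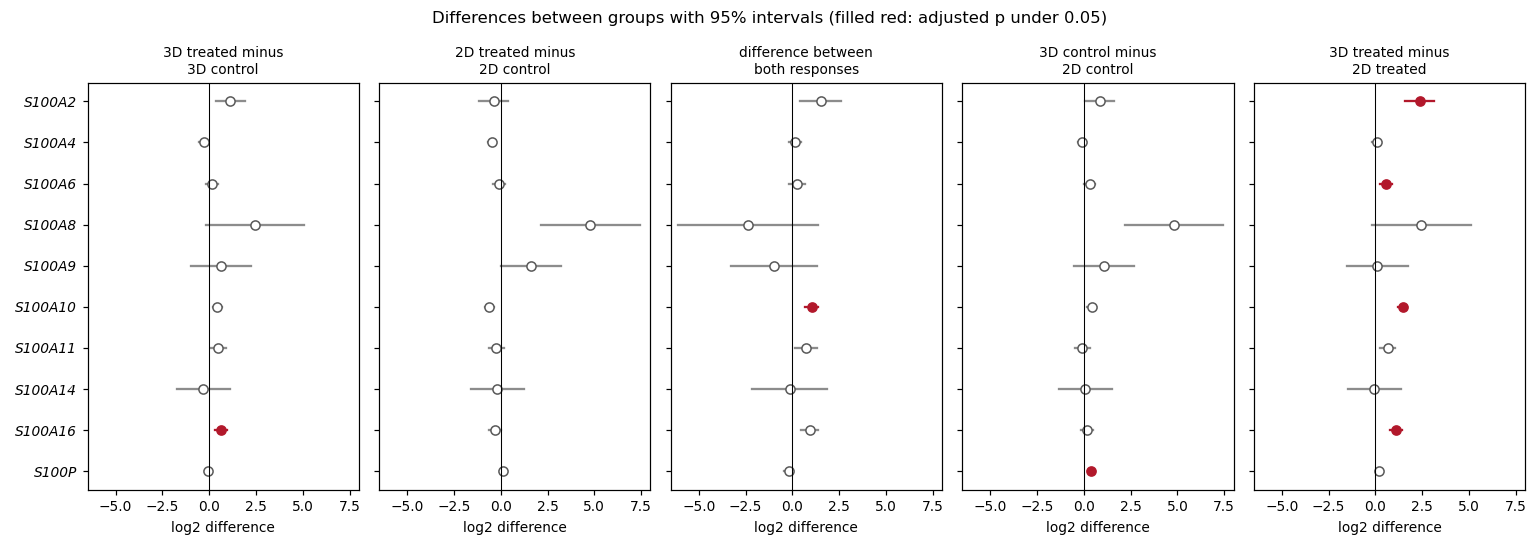
Log2 difference between group means (horizontal axis) for each S100 gene (vertical axis) in 5 comparisons, with 95% intervals from limma. Filled red points have an adjusted p under 0.05: S100A16 in treated against control 3D cultures, S100A10 for the difference between the responses, S100P between control cultures, and S100A2, S100A6, S100A10 and S100A16 between treated cultures; S100A8 and S100A9 had the widest intervals beside S100A14.

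S100A4, known as metastasin or fibroblast-specific protein, binds non-muscle myosin and is widely used as a marker of cells that have become mesenchymal. It was at 14.67 and 14.56 in 2D controls, 14.19 and 14.14 in 2D treated, 14.55 and 14.48 in 3D controls, and 14.33 and 14.13 in 3D treated cultures. The treated arrays were below their own controls in both culture forms, and the 2 treated groups overlapped. S100A4 was not called in any comparison. Treated minus control was -0.46 ± 0.08 in 2D (limma, adjusted p = 0.226) and -0.29 ± 0.08 in 3D (adjusted p = 0.13), with an interval from -0.52 to -0.07 in 3D.

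S100A6, or calcyclin, is a member of proliferating and stromal cells that binds the calcyclin-binding protein CACYBP. It was at 14.31 and 14.20 in 2D controls, 14.30 and 14.01 in 2D treated, 14.52 and 14.62 in 3D controls, and 14.77 and 14.67 in 3D treated cultures. On this probe set every spheroid array was above every monolayer array. Only the difference between treated cultures passed, 0.56 ± 0.11 or 1.48-fold (limma, adjusted p = 0.0406); the response was 0.15 ± 0.11 in 3D (0.574) and -0.10 ± 0.11 in 2D (1), the latter 0.04 without 2D treated replicate 2. That call was retained with 1 of the 8 arrays left out, 2D treated replicate 1 (0.71, adjusted p = 0.0293). It was not retained without 2D control replicate 1 or 2 (0.0869 each), 2D treated replicate 2 (0.0789), 3D control replicate 1 or 2 (0.0953 each), or 3D treated replicate 1 (0.137) or 2 (0.107). Quantile normalization (0.0542) and the replicate number as a block (0.0622) also ended it. The other probe set had values from 4.00 to 5.12 and gave 0.62 for the same difference (adjusted p = 0.251). In controls it went the other way, at 4.48 and 4.57 in 2D and 4.00 and 4.03 in 3D, a difference of -0.51 (adjusted p = 0.443).

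S100P is a member of placenta and of many carcinomas that binds ezrin and acts on RAGE when released. It was at 14.31 and 14.28 in 2D controls, 14.50 and 14.36 in 2D treated, 14.68 and 14.73 in 3D controls, and 14.57 and 14.70 in 3D treated cultures. All spheroid arrays were above all monolayer arrays, and the 3D groups overlapped. Untreated spheroids exceeded untreated monolayers by 0.41 ± 0.07, or 1.32-fold (limma, adjusted p = 0.046). The response was 0.14 ± 0.07 in 2D (adjusted p = 0.87) and -0.07 ± 0.07 in 3D (0.777).

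The call of S100P was lost with any of the 8 arrays left out. Its adjusted p (limma) was then 0.125 and 0.167 without 2D control replicate 1 and 2, 0.0621 without either 2D treated array, 0.131 and 0.177 without 3D control replicate 1 and 2, and 0.0721 without either 3D treated array. It was 0.0501 after quantile normalization, 0.0793 where only the 4 control arrays were fitted and 0.108 with the replicate block. With an array left out, the difference itself stayed between 0.38 and 0.43.

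Of the 9 receptors and binding partners of S100 proteins, 2 were called higher and 2 lower with treatment in 3D, against 5.53% and 10.8% of all genes. MYH9, the myosin heavy chain that S100A4 binds, rose by 0.77 (limma, adjusted p = 0.0418) and IQGAP1, a scaffold bound by S100P, by 0.48 (0.0482). BSG, or basigin, a receptor of S100A9, fell by 0.91 (0.0395), and EZR, the ezrin that S100P binds, fell by 0.20 (0.00643). EZR was also the only partner called in 2D, where it fell by 0.43 (0.00849). AHNAK, a large scaffold bound by the S100A10 and annexin A2 complex, was at 6.38 and 6.57 in 2D treated and at 8.93 and 8.50 in 3D treated cultures, and was 2.24 ± 0.23 higher in the latter (0.00849). CACYBP had a difference of -0.74 there (0.0221) and EZR one of -0.19 (0.00493). Of the 9 genes, 1 was called higher and 2 lower between treated cultures, against 9.06% and 14.5% of all genes. EZR and IQGAP1 were lower in 3D than in 2D controls.

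Of the 10 other S100 genes measured, S100A1, S100A5, S100B, S100G and S100Z were near background in every group. S100A3, a cysteine-rich member of hair cuticle, was at 8.46 and 8.61 in 3D controls and at 10.38 and 9.89 in 3D treated cultures, and rose by 1.60 ± 0.29 (limma, adjusted p = 0.0414). S100A13, which takes part in the release of FGF1 and interleukin 1 alpha, was 0.37 ± 0.05 higher in 3D than in 2D controls (0.0255) and 0.73 ± 0.05 higher in 3D treated than in 2D treated cultures (0.00336). Neither was called in 2D. The 5 measured genes of the S100-fused family, such as FLG, which encodes filaggrin, were near background in every group with no call in any comparison. Of 13 other EF-hand proteins, 2 were called higher and 3 lower with treatment in 3D, led by GCA (-1.07), CALU (0.83) and EFHD2 (0.74). In 3D treated against 2D treated cultures 2 were called higher and 5 lower. Over all genes, 5.53% were called higher and 10.8% lower in the former comparison, and 9.06% and 14.5% in the latter.

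**Figure D3:**
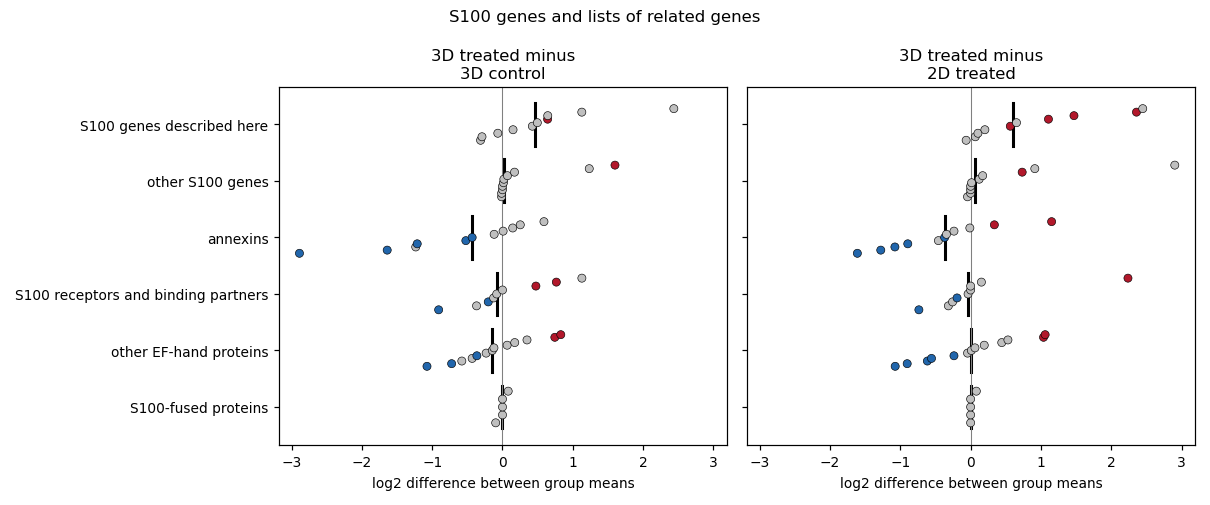
Log2 difference between group means (horizontal axis) of the 10 S100 genes and of 5 lists of related genes (vertical axis), in treated against control 3D cultures (left) and in 3D treated against 2D treated cultures (right). Points are genes, red called higher, blue called lower and grey not called, and bars are list medians; the S100 medians were 0.46 and 0.61, and the annexin medians -0.43 and -0.37.

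In the RefSeq table of build GRCh38.p14, 9 of the 10 genes lie on chromosome 1 in the order S100A10, S100A11, S100A9, S100A8, S100A6, S100A4, S100A2, S100A16 and S100A14, and S100P lies on chromosome 4. Between S100A10 and S100A14 are 47 protein-coding genes outside the S100 family, many of them genes of the skin barrier, of which 24 were measured. Of these, 16 were near background in every group. The late cornified envelope gene LCE3D, named after its values were seen, was the only one called in any comparison: it was higher in 3D treated cultures than in 3D controls and 2D treated cultures, and its response was larger in 3D. Of the 14 S100 genes in the same stretch, 1 was near background in every group. In 3D treated cultures 4 were called higher than in 2D treated and 2 higher than in 3D control cultures. The shares over all genes were 9.06% and 5.53%.

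**Figure D4:**
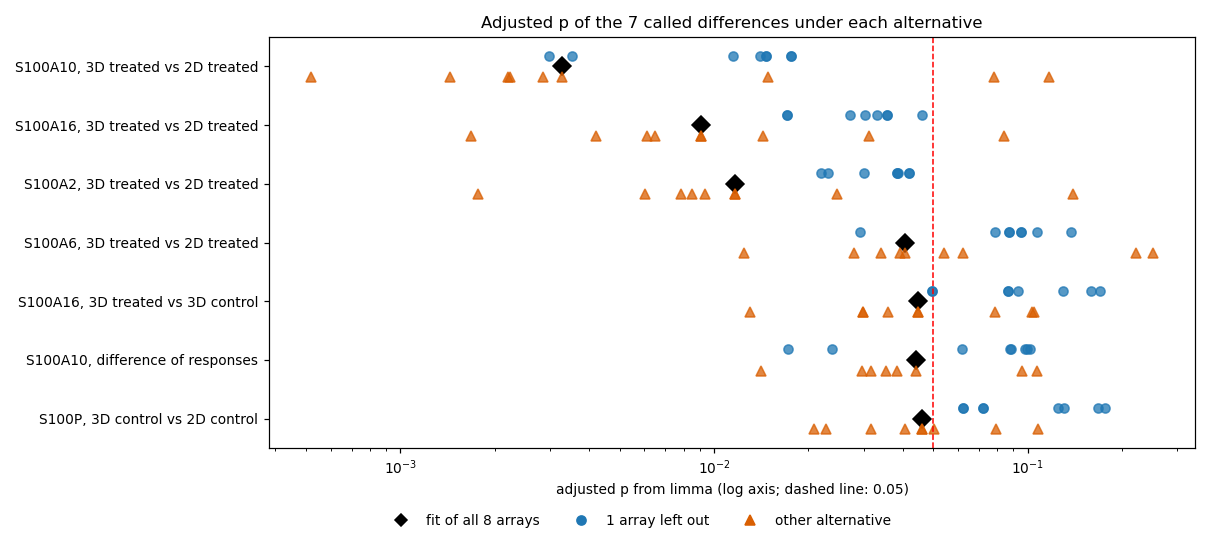
Adjusted p from limma (horizontal log axis; the dashed line marks 0.05) of the 7 called differences of S100 genes (vertical axis), for all 8 arrays (diamonds), with each array left out in turn (circles) and under the other processing alternatives (triangles). The circles of S100A10, S100A16 and S100A2 between treated cultures all lie left of the line, with a highest value of 0.0462, and those of S100P all lie right of it, from 0.0621 to 0.177.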

How the data were processed

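Gene expression was measured in 8 A549 cultures with Affymetrix U133 Plus 2.0 arrays, 2 per group. Per the study's methods, the authors subtracted background with GCRMA and tested with limma (version 3.6.9 in the submitters' processing notes). The deposited values are log2 expression values per probe set. GCRMA sets dim probe sets to a common floor, so differences that start there depend on the background correction. No other normalization was applied here. Groups came from the sample titles. The genome build behind the deposited table is not given in the sources used here.

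Of 54675 probe sets, 62 Affymetrix controls were left out. A probe set was named only where the platform annotation gives 1 gene (41091 probe sets, against 1801 with several and 11721 with none). Group means of all 8 arrays were compared with lmFit and eBayes of limma 3.58.1 in R 4.3.3, with Benjamini-Hochberg adjustment over 54613 probe sets. The script was tested on simulated data. Per-sample columns not used numbered 0.

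All 10 S100 genes are named, plus ANXA1 and ANXA2. From each related list, up to 3 called genes with the largest change are named for treated against control 3D cultures. In other comparisons the called genes with the largest changes are not all named, such as ANXA5 between treated cultures. Other names were chosen after their values were seen. The members and lists were chosen with earlier results of these data known. Alternatives were a replicate block, an intensity trend, leaving out dim probe sets, subtracting the median of each array, quantile normalization, adjustment over 1 probe set per gene, the probe set with the largest change, a fold of at least 2, only the 4 arrays compared, and each array left out in turn. Promoter windows (RefSeq, GRCh38.p14) matched 10 of 10 genes. Figures were drawn with matplotlib 3.10.9.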

Additional observations from a re-analysis of the deposited data

Results flagged for a closer look

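For S100A10 the difference between the 3D and the 2D response was 1.04 on the log2 scale (limma, adjusted p = 0.0439), from 0.42 in 3D and -0.61 in 2D, neither of which passed by itself. It was called in 2 of 8 fits with an array left out, without 3D treated replicate 1 (0.0237) or 2 (0.0172); over all 8 the adjusted p ran from 0.0172 to 0.102. It was not called with the replicate block (0.107) or on the other probe set (0.0962). Among the related genes, the annexin gene ANXA4 had a difference of -1.32 (adjusted p = 0.0476), from -1.64 in 3D and -0.32 in 2D, and EZR, the ezrin gene, one of 0.229 (adjusted p = 0.0264), from -0.20 in 3D and -0.43 in 2D. EZR was therefore lower with treatment in both culture forms, and by less in 3D. Its duplicates were nearly equal, at 11.005 and 11.004 on the 3D treated arrays, and the p rests on this small spread. No fit with an array left out is given for ANXA4 or EZR.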

How the results depend on the processing

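Of 840 single differences of the 10 genes under an alternative, 758 kept their direction and their side of the threshold, 46 lost and 22 gained a call, and 14 changed sign. A call could be lost only where the fit of all arrays had one, which held for few of these differences. The 46 losses are therefore a larger share of the values that could lose a call than of all 840. Some values could not change, such as those of genes with 1 probe set under the probe set alternative. With the replicate block, calls of members went from 1 to 0 for treated against control 3D cultures, for the difference of responses and for the control cultures, and S100A2, S100A10 and S100A16 were still called between treated cultures. The replicate numbers are those of the sample titles, which name no batch. For same-numbered arrays of 2 groups, the deviations from the group means correlated from -0.0148 to 0.283 over 28188 probe sets. The highest value was that of 2D control and 2D treated. For treated against control 3D cultures the count of 1 became 0 with quantile normalization or a fold of at least 2, 3 with the filter on dim probe sets (S100A2 and S100A10 added), 2 with adjustment over 1 probe set per gene, and 0 to 2 with an array left out; with only the 4 arrays compared it was 1, S100A8 in place of S100A16. In 2D the count of 0 became 1 without 2D treated replicate 2 and was 0 to 1 over the arrays left out. The difference of responses gave 2 with the filter (S100A16 added), 0 with the probe set of the largest change and 0 to 2 with an array left out. Control cultures gave 0 with quantile normalization, a fold of at least 2 or only the 4 arrays compared, 3 with array medians subtracted or the filter (S100A8 and S100A10 added), 2 with adjustment over 1 probe set per gene, and 0 to 1 with an array left out. Treated cultures gave 2 with the probe set of the largest change and 0 with only the 4 arrays compared, where fewer arrays set the spread, and 3 to 5 with an array left out. Signs changed with the other probe set for S100A6 (-0.51) and S100A10 (-0.97) between control cultures. With an array left out, S100A14 ranged from -0.856 to 0.232 for the 3D response, -0.705 to 0.336 for the 2D response, -0.671 to 0.417 for their difference, -0.48 to 0.608 between controls and -0.584 to 0.457 between treated cultures, S100A6 from -0.242 to 0.043 for the 2D response, S100A4 from -0.0354 to 0.168 and S100A9 from -0.71 to 0.918 between treated cultures. The cause of these changes was not tested. S100A8 in 2D controls and the other probe set of S100A8 lay near the floor, where signal over background limits the measurement.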
